A study of Mus musculus with 8 samples.

Results

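The large histone gene cluster of the mouse lies on chromosome 13, and its genes carry symbols that begin with Hist1h. Members were all protein-coding genes of chromosome 13 with that prefix in the GENCODE vM21 annotation of mm10, and there were 54 of them among 20807 autosomal protein-coding genes. Their starts fell in 7 of the 23972 autosomal bins of 100 kb that were scored in all 8 libraries, of which 1174 bins lie on chromosome 13. Each bin was used once, however many histone genes start in it. The score of a bin is shared by all genes in it, so single histone genes cannot be told apart here. The data are compartment scores from Hi-C, an assay that ligates and counts pairs of loci that lie close together in fixed nuclei. A positive score places a bin in the A compartment, where active chromatin gathers, and a negative score in the B compartment, where inactive chromatin gathers. The score has no physical unit. Each chromosome averages 0 in each library, and whether a mean was subtracted is not stated, so 0 may not be the original border of the compartments.

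The study asked how loss of histone H3 lysine 9 (H3K9) methyltransferases relates to these compartments in mouse embryonic stem cells (mESCs), and each of its 8 groups has 1 set of scores here, called a library below, although Hi-C was done in biological replicates. The Setdb1 line carries a conditional allele of Setdb1 that is removed after 4-hydroxytamoxifen (4-OHT). From it came Setdb1 WT (no treatment), cells with UNC0642 at 2 µM for 3 days (Setdb1 WT + UNC), cells with 4-OHT at 800 nM for 5 days (Setdb1 KO) and cells with 4-OHT for 2 days followed by UNC0642 at 2 µM for 3 days (Setdb1 KO + UNC). UNC0642 inhibits G9a and GLP, the enzymes that make most H3K9 dimethylation in these cells. The other groups were Suv39h WT and Suv39h DKO, the latter lacking SUV39H1 and SUV39H2, each without and with UNC0642 at 2 µM for 3 days (Suv39h WT + UNC, Suv39h DKO + UNC). The Suv39h WT and DKO cells are different clones, which means that genotype and clone cannot be told apart, and each knockout model rests on 1 line. Only the Setdb1 KO groups received 4-OHT, so loss of SETDB1 and exposure to 4-OHT cannot be told apart either. All groups were mESCs grown with LIF, and the files hold no expression values with which the labelled cell type could be checked.

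Replication-dependent histone genes supply the H1, H2A, H2B, H3 and H4 proteins that package newly copied DNA, and they are transcribed mainly in S phase. Their transcripts have no introns and no poly(A) tail and end instead in a short stem-loop that is bound by SLBP. Many of these genes gather in a nuclear structure called the histone locus body, where the factor NPAT drives their transcription. The genes between the 2 parts of the cluster are of another kind, the Vmn1r genes, which encode pheromone receptors of sensory neurons in the vomeronasal organ.

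The stem-loop is the feature that these genes share beyond their names, and its sequences are shown for that reason. The 16-base motif, fixed in all letters but the fourth base pair of the stem and the last base of the loop, was searched on the coding strand in the 150 bases after each annotated stop codon in mm10. It was found in 49 of the 54 members (90.7%) and in 62 of 20653 autosomal protein-coding genes (0.300%). The members held 4 versions of it, in which the flanking lower-case bases pair to form the stem and the capitals mark the loop.

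Hist1h3h (chr13:21718095-21718110, plus strand): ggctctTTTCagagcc

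Hist1h1t (chr13:23696525-23696540, plus strand): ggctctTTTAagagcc

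Hist1h4h (chr13:23531458-23531473, plus strand): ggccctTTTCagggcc

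Hist1h4i (chr13:22040966-22040981, minus strand): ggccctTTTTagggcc

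The version of Hist1h3h, a gene of the core histone H3, stood in 33 members of the H1, H2A, H2B and H3 families. The version of Hist1h1t, which encodes a linker histone of the testis, stood in 8 members of the H1, H2B and H3 families. The remaining versions were found in H4 genes, 7 with the version of Hist1h4h and 1 with that of Hist1h4i. The distance from stop codon to motif was 23 to 55 bases, with a median of 30. Both parts of the cluster carried it, in 21 of 23 and 28 of 31 members. The 5 members without an exact match were Hist1h4j, Hist1h2an, Hist1h3g, Hist1h4b and Hist1h4a. Outside the cluster it was found in 13 genes, of which 12 were Hist2h, Hist3h or Hist4h genes and the remaining one was H2afx, and it was found in 0 Vmn1r genes of the gap.

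The promoters were compared in the same way, with RefSeq windows of 300 bases (250 before and 50 after the start, GRCm38.p6, which shares its coordinates with mm10). The words CCAAT and TATAAA, which can share a base at their ends, were searched on both strands. Of the members, 51 matched a RefSeq gene, with 52 promoters in all. CCAAT was in 44 of these (84.6%), in 12 of 32 promoters of Vmn1r genes in the gap (37.5%) and in 38.1% of all 20085 autosomal protein-coding promoters. TATAAA was in 31 (59.6%), 9 (28.1%) and 12.7% of them, and both words together in 25 (48.1%), 6 (18.8%) and 5.12%. The median number of CpG sites in the window was 10.5 in members, 1 in the Vmn1r genes and 14 in all promoters. The last histone promoter of block 1 and the first Vmn1r promoter of the gap, which stand on either side of the change in score described below, are shown, with CCAAT on either strand in capitals. Hist1h2bj encodes an H2B histone and Vmn1r189 a receptor.

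Hist1h2bj (chr13:22042948-22043247, plus strand): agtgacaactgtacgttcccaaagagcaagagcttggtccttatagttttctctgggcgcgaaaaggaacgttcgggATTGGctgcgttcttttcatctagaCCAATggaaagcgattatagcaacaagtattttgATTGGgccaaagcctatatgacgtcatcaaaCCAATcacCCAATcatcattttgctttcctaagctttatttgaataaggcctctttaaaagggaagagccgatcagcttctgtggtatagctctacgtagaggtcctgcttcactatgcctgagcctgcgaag

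Vmn1r189 (chr13:22102616-22102915, minus strand): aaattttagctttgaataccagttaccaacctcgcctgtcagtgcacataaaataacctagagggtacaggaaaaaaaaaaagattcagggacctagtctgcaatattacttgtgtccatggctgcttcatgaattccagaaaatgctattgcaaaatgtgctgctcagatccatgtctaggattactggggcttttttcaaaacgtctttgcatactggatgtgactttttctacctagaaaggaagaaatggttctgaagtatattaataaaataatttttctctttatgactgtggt

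By the GENCODE starts, the H2A gene Hist1h2ag starts 270 bases from Hist1h2bj and on the other strand. This arrangement recurred, with 11 H2A and H2B pairs transcribed away from each other from starts that lay 176 to 306 bases apart (median 268). Such pairs fell in 6 of the 7 bins listed below, all but the one starting at 23700001.

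The members formed 2 blocks. Block 1 spanned chr13:21700001-22100000 with 23 genes, and block 2 spanned chr13:23500001-24000000 with 31 genes. The families were H1 (6 genes), H2A (13), H2B (15), H3 (9) and H4 (11), and all 5 were present in both blocks, although the linker histone genes were split 1 to 5 and the H3 genes 2 to 7. Between the blocks lay a gap of 14 bins, chr13:22100001-23500000, with no histone gene. In 11 of the gap bins at least 1 of 35 protein-coding Vmn1r genes starts. The bin from 22900001 holds no gene start, the bin from 23300001 holds Zfp322a, and the last bin, from 23400001, holds Abt1, Btn1a1 and Btn2a2.

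**Figure D1:**
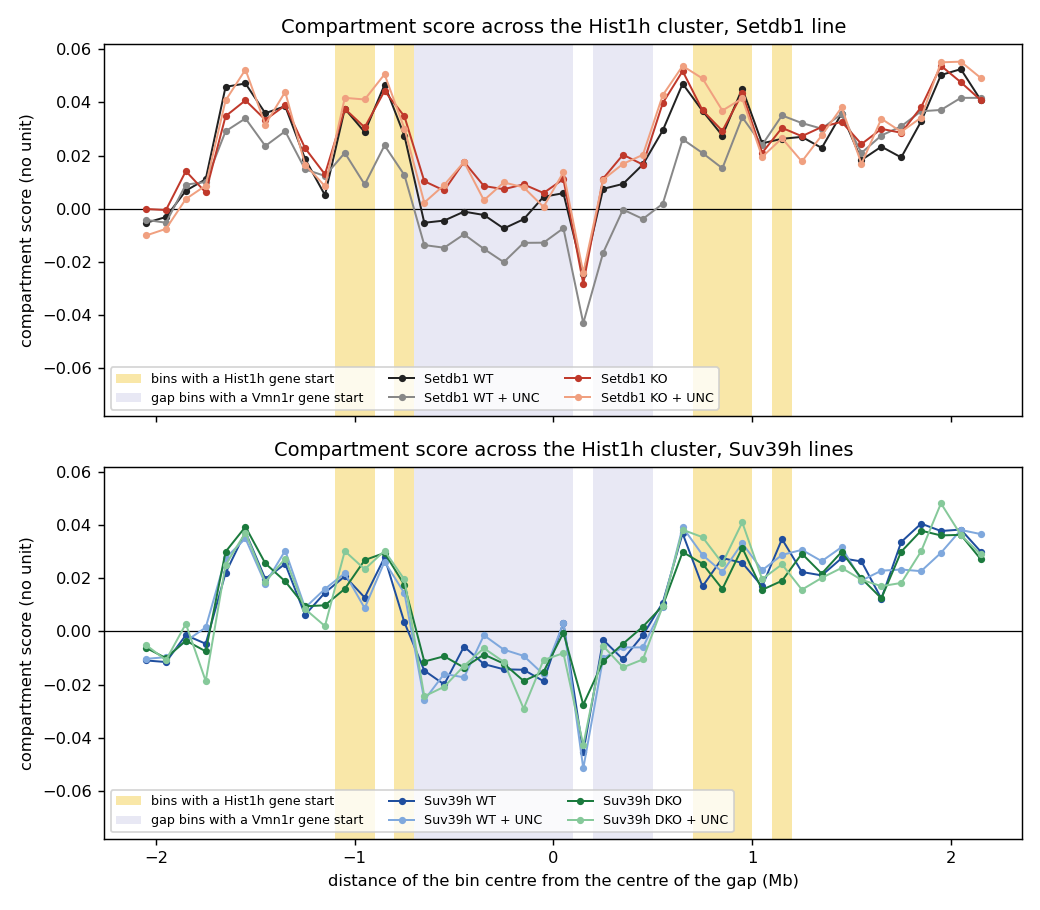
Compartment score of each 100-kb bin against the distance of its centre from the centre of the gap (Mb), 1 line per library, for the Setdb1 line (top) and the Suv39h lines (bottom). Yellow bins hold a Hist1h gene start and are positive in all 8 libraries. Of the 11 lilac Vmn1r bins between them, all are positive in Setdb1 KO and Setdb1 KO + UNC, 5 in Setdb1 WT, and 0 or 1 in each of the other libraries.

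All 7 histone bins were in the A compartment in all 8 libraries, as were 38.9% of all bins scored. With the linear relation of score to GC content removed, the bin from 21800001 was just below 0 in Setdb1 WT + UNC (-0.00112) and Suv39h WT + UNC (-0.00114), and the other 6 stayed positive. Of the 43 autosomal bins in which at least 10 protein-coding genes start, 40 (93.0%) were positive in all 8 libraries. The mean score of the 7 histone bins was 0.0328 and 0.0212 in Setdb1 WT without and with UNC0642, 0.0347 and 0.0382 in Setdb1 KO, 0.0203 and 0.0226 in Suv39h WT, and 0.0217 and 0.0286 in Suv39h DKO. The 3 libraries with the highest means were Setdb1 KO + UNC, Setdb1 KO and Setdb1 WT. The means of the 8 libraries exceeded between 72.1% and 87.5% of the bins of chromosome 13 in the same library. The median over the A bins of chromosome 13 was 0.0250 to 0.0272, so that the histone bins were above the typical A bin in the 3 libraries named and in Suv39h DKO + UNC, and below it in the other 4.

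One library stood apart. Across the bins of chromosome 13, Setdb1 WT + UNC correlated with Setdb1 WT at r = 0.940, while Setdb1 KO and Setdb1 KO + UNC, of the same line, did so at 0.980 and 0.977. With Suv39h WT, which is another line, Setdb1 WT + UNC correlated at 0.972. These are descriptions across neighbouring bins, which are not independent. The limma fits and the orders of the libraries are given below with and without Setdb1 WT + UNC. In the limma fits without it, Setdb1 WT is represented by 1 library, and its spread is taken to be like that of the other groups.

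Block 1 opens with the bin from 21700001, the start of 12 histone genes, among them Hist1h1b of the H1 family and the H3 genes Hist1h3h and Hist1h3i. Its score was 0.0377 and 0.0211 in Setdb1 WT without and with UNC0642, 0.0376 and 0.0417 in Setdb1 KO, 0.0207 and 0.0219 in Suv39h WT, and 0.0160 and 0.0302 in Suv39h DKO. Setdb1 WT, Setdb1 KO and Setdb1 KO + UNC stood highest in it, and Setdb1 WT + UNC lay among the Suv39h libraries.

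The bin from 21800001 holds the start of 6 members, with H2A, H2B and H4 genes. Its score was 0.0289 and 0.00916 in Setdb1 WT without and with UNC0642, 0.0307 and 0.0411 in Setdb1 KO, 0.0127 and 0.00874 in Suv39h WT, and 0.0268 and 0.0234 in Suv39h DKO. This bin had the widest spread of the 7, with an SD over the 8 libraries of 0.0116, and here both Suv39h DKO libraries were above both Suv39h WT libraries.

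The bin from 22000001 closes block 1 and holds Hist1h2bj and 4 other members together with Prss16, a serine protease gene, and Vmn1r188. Its score was 0.0275 and 0.0127 in Setdb1 WT without and with UNC0642, 0.0348 and 0.0302 in Setdb1 KO, 0.00337 and 0.0144 in Suv39h WT, and 0.0174 and 0.0195 in Suv39h DKO. It had the lowest mean over the libraries of the 7 bins, and in Suv39h WT it was close to 0. The bin before it, from 21900001, has no histone gene and was also positive in all 8 libraries (0.0239 to 0.0506). The genes Zfp184 and Pom121l2 start in it.

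Block 2 opens with the bin richest in members, from 23500001, in which 14 start. Its score was 0.0368 and 0.0210 in Setdb1 WT without and with UNC0642, 0.0370 and 0.0490 in Setdb1 KO, 0.0169 and 0.0288 in Suv39h WT, and 0.0254 and 0.0354 in Suv39h DKO. Each UNC0642 library except that of Setdb1 WT was above its untreated counterpart in this bin, by 0.0120, 0.0118 and 0.01001.

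The bin from 23600001 holds the start of 6 members, including the linker histone genes Hist1h1e and Hist1h1t. Its score was 0.0275 and 0.0152 in Setdb1 WT without and with UNC0642, 0.0293 and 0.0370 in Setdb1 KO, 0.0276 and 0.0223 in Suv39h WT, and 0.0159 and 0.0256 in Suv39h DKO. Setdb1 WT and Suv39h WT differed by less than 0.0001 in this bin.

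The bin from 23700001 holds 9 members together with Hfe, a regulator of iron uptake, and Trim38. Its score was 0.0452 and 0.0344 in Setdb1 WT without and with UNC0642, 0.0434 and 0.0415 in Setdb1 KO, 0.0258 and 0.0332 in Suv39h WT, and 0.0314 and 0.0410 in Suv39h DKO. It had the highest mean of the 7 bins, 0.0370, above 87.3% of the bins of chromosome 13.

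The last bin, from 23900001, holds 2 members, Hist1h2ba and Hist1h2aa, the H2B and H2A variants of the testis, together with Slc17a4 and Scgn. Its score was 0.0263 and 0.0351 in Setdb1 WT without and with UNC0642, 0.0304 and 0.0265 in Setdb1 KO, 0.0347 and 0.0287 in Suv39h WT, and 0.0190 and 0.0252 in Suv39h DKO. The order of the libraries here was unlike that in the other 6 bins, since Setdb1 WT + UNC was highest. Its SD over libraries, 0.00528, was also the smallest of the 7.

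**Figure D2:**
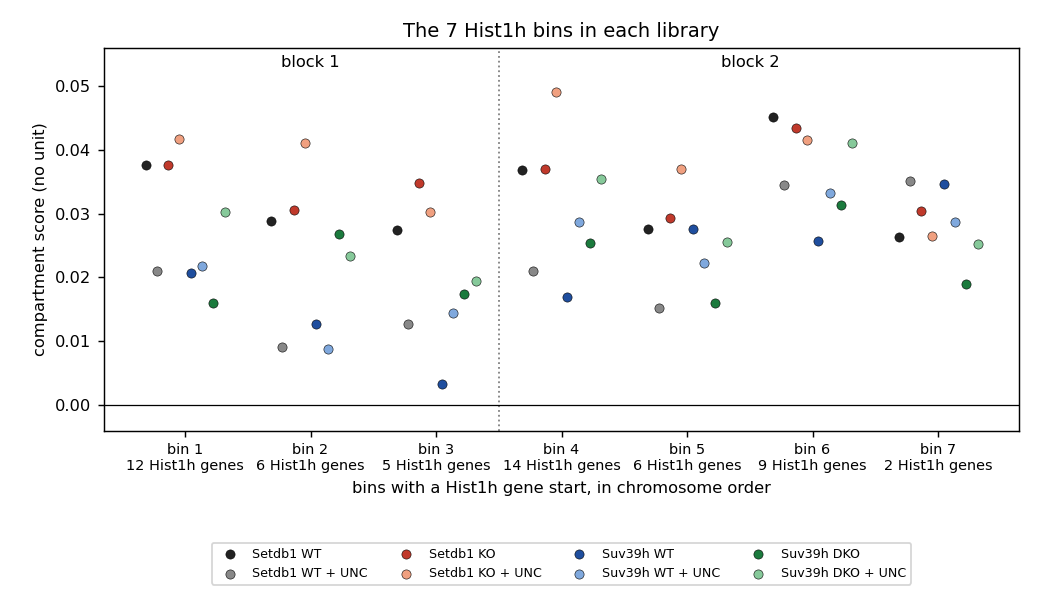
Compartment score (no unit) of the 7 bins with a Hist1h gene start, in chromosome order, with 1 point per library. All points are above 0, Setdb1 WT, Setdb1 KO and Setdb1 KO + UNC are the 3 highest in bins 1, 2, 3, 4 and 6, and in bin 7 Setdb1 WT + UNC is highest.

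By family, each bin that holds a member of it counted once, the means lay close together because the families share bins. The H4 genes, found in 6 bins, had means from 0.0179 in Suv39h WT to 0.0401 in Setdb1 KO + UNC. The H3 genes, found in only 3 of the bins, had means from 0.0211 to 0.0441 in the same libraries. The H1 genes, which bind linker DNA, lay in 4 bins with means from 0.0222 to 0.0423, while the H2A and H2B genes were in all 7 bins and so had the means of the cluster.

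The gap was lower than the histone bins in every library. Its mean score was 0.00511 and -0.0101 in Setdb1 WT without and with UNC0642, 0.0135 and 0.0132 in Setdb1 KO, -0.00784 and -0.00820 in Suv39h WT, and -0.00655 and -0.0106 in Suv39h DKO. Of the 14 gap bins, 7 and 2 were positive in Setdb1 WT without and with UNC0642, 13 and 13 in Setdb1 KO, 3 and 3 in Suv39h WT, and 3 and 2 in Suv39h DKO. With the mean implied by the sum of squares added to or subtracted from each chromosome, the counts were 7 to 9 and 1 to 3 for Setdb1 WT, 13 and 11 to 13 for Setdb1 KO, 3 to 4 and 3 to 4 for Suv39h WT, and 3 to 4 and 2 for Suv39h DKO. The gap was therefore mostly in the A compartment in both Setdb1 KO libraries and mostly in the B compartment in the Suv39h libraries and in Setdb1 WT + UNC. The counts also depend on GC content, since with its linear relation to the score removed they were 13 and 5 for Setdb1 WT, 13 and 13 for Setdb1 KO, 6 and 8 in Suv39h WT, and 5 and 5 in Suv39h DKO.

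The histone bins exceeded the gap by 0.0277 and 0.0313 in Setdb1 WT without and with UNC0642, 0.0212 and 0.0249 in Setdb1 KO, 0.0281 and 0.0308 in Suv39h WT, and 0.0283 and 0.0392 in Suv39h DKO. The mean of this difference was 0.0290 ± 0.00525 (SD over libraries, n = 8), about as large as the SD of 0.0291 of all scores on chromosome 13. It was smallest in Setdb1 KO and largest in Suv39h DKO + UNC. The GC content was 42.5% in the histone bins and 40.5% in the gap bins, against 41.6% over chromosome 13. When the linear relation of score to GC content was removed, the mean difference was 0.0186, and the lowest was 0.0110.

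**Figure D3:**
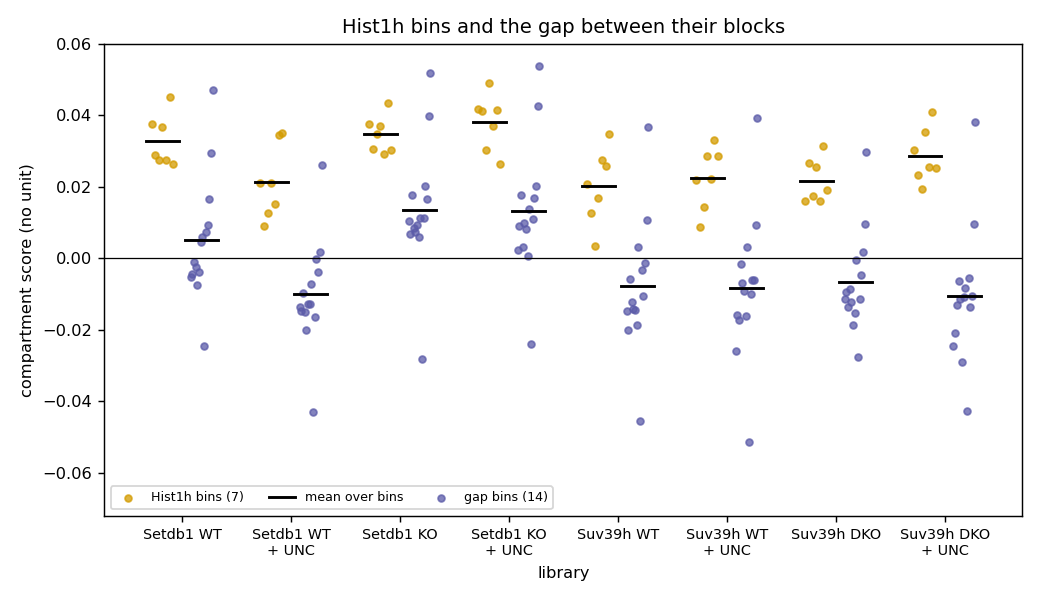
Compartment score (no unit) of the 7 Hist1h bins (yellow) and the 14 gap bins (blue) in each library, with black bars at the mean over bins. The mean of the histone bins is above that of the gap in every library, by 0.0212 to 0.0392, and the highest gap bin, next to block 2, reaches the range of the histone bins in every library.

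The borders of the gap were not alike. At the left border, the last histone bin of block 1 was above the first gap bin (from 22100001, with Vmn1r189, Vmn1r191 and Vmn1r192) by 0.0327 and 0.0263 in Setdb1 WT without and with UNC0642, 0.0244 and 0.0279 in Setdb1 KO, 0.0181 and 0.0402 in Suv39h WT, and 0.0288 and 0.0439 in Suv39h DKO. The step was thus made within neighbouring bins in every library. At the right border there was no such step, because the last gap bin (from 23400001, with Abt1 and the butyrophilin genes) had a mean of 0.0404, the highest of the gap, and exceeded the first bin of block 2 in all 8 libraries. The last bin with a Vmn1r start was below the first bin of block 2 by a mean of 0.0271 ± 0.00930 (SD over libraries, n = 8), with 2 bins in between. Outside the cluster, the 10 bins on the left had a mean of 0.0144 ± 0.00490 and the 10 on the right a mean of 0.0310 ± 0.00376 (SD over libraries, n = 8). The lowest gap bin was the one from 22900001, which has no gene start and scored from -0.0515 to -0.0241.

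The comparisons that follow share libraries, so that Setdb1 WT and Suv39h WT each serve in 4 of them and no agreement between comparisons is read. SETDB1 adds methyl groups to H3K9 and is known for its work at retroelements. Its loss, which here always goes with 4-OHT, was compared in the absence and in the presence of UNC0642. Without UNC0642, the histone bins differed little. Their mean was higher in Setdb1 KO than in Setdb1 WT by 0.00190, with single bins from -0.00184 to 0.00731, and 0 of 7 were higher by at least 0.01, against 1.4% of all bins. The gap between them was higher by a mean of 0.00839, and 8 of its 14 bins were higher by at least 0.01. The bins that held Vmn1r starts accounted for 7 of those 8. The histone minus gap difference thus changed by -0.00649. Elsewhere on the autosomes, 83 bins with a protein-coding Vmn1r start had a median difference of 0.00152, and 2 of them were higher by at least 0.01.

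With UNC0642 in both libraries, the histone bins were higher in Setdb1 KO + UNC than in Setdb1 WT + UNC by a mean of 0.0169, and 5 of 7 were higher by at least 0.01, against 7.16% of all bins, and 4 of 7 by at least 0.02, against 1.34%. The largest difference was 0.0320 in the bin from 21800001, and the last bin, with the testis variants, went the other way at -0.00858. The gap was higher by a mean of 0.0233, with 14 of 14 bins past 0.01, and the flanks by 0.00359 on the left, with 3 of 10, and 0.00222 on the right, with 2 of 10. This comparison rests on Setdb1 WT + UNC. Against untreated Setdb1 WT instead, the histone bins of Setdb1 KO + UNC were higher by a mean of 0.00531, with 2 of 7 past 0.01 against 1.46% of all bins, and the gap by 0.00813, with 5 of 14 past it.

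**Figure D4:**
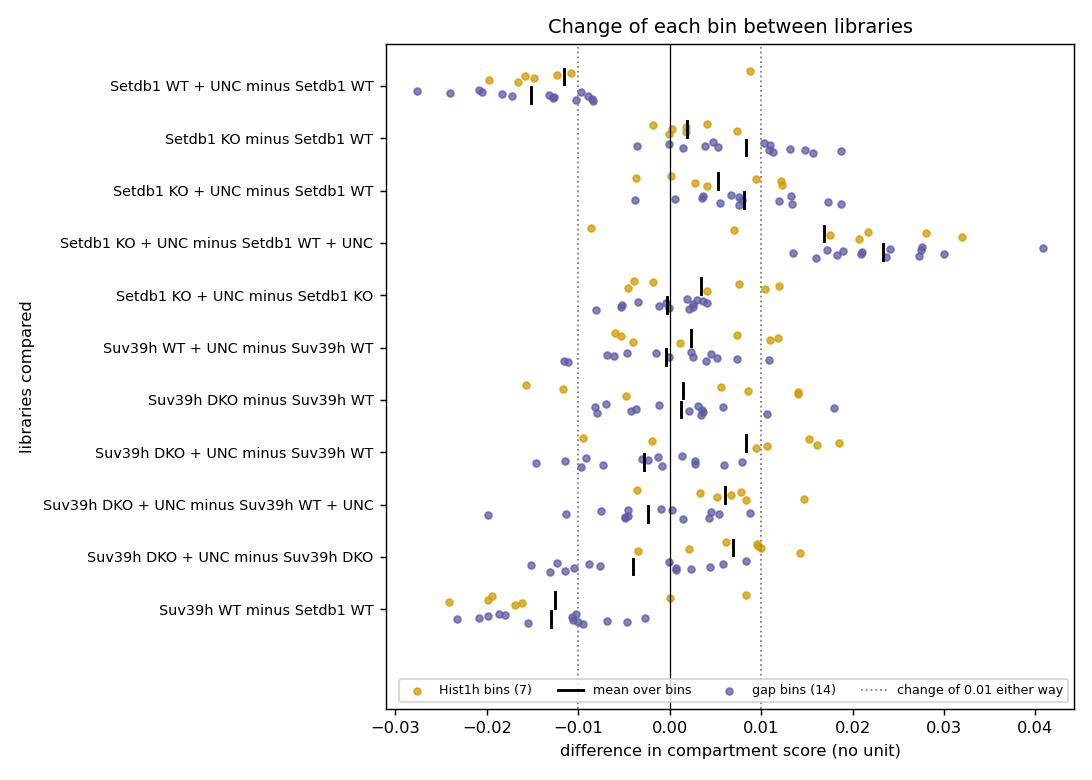
Difference in compartment score (no unit) of each histone bin (yellow) and gap bin (blue) between the libraries named on the left, with black bars at the mean over bins and dotted lines at a change of 0.01 either way. The 3 comparisons with mean histone differences beyond 0.01 are Setdb1 WT + UNC minus Setdb1 WT, Setdb1 KO + UNC minus Setdb1 WT + UNC and Suv39h WT minus Setdb1 WT.

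The test of SETDB1 loss set 2 libraries against 2 with UNC0642 as a covariate (limma, all 23972 bins, Benjamini-Hochberg adjustment). It called 0 bins anywhere at an adjusted p under 0.05, and 2182 had an unadjusted p under 0.05. The lowest adjusted p (limma) among the 7 histone bins was 0.399, in the bin from 21800001, with an estimate of 0.0169 ± 0.00537 (standard error). At an unadjusted p under 0.05, 4 histone bins were higher (from 21800001, 22000001, 23500001 and 23600001) against 5.16% of all bins, and 12 of 14 gap bins were. The median estimate was 0.0117 over the histone bins, 0.0157 over the gap bins and -0.000293 over all bins. Without Setdb1 WT + UNC, the median was 0.00277 over the histone bins, of which 0 were higher at an unadjusted p under 0.05, and 0.00900 over the gap bins, of which 7 were, against 2.19% of all bins. Again 0 bins were called in that fit.

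**Figure D5:**
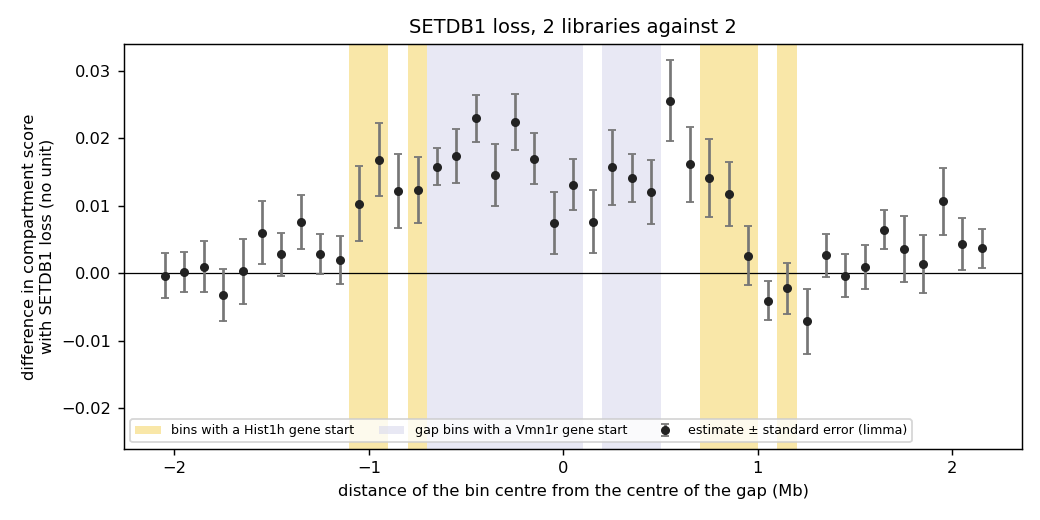
Estimated difference in compartment score with SETDB1 loss (limma, 2 libraries against 2, points with standard errors) against the distance of the bin centre from the centre of the gap (Mb). Estimates are above 0 in all 14 gap bins and in 6 of 7 histone bins, and 0 bins were called after adjustment.

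The order of the single libraries can be read without a fit. Both Setdb1 KO libraries were above all 6 others in 4 histone bins (from 21800001, 22000001, 23500001 and 23600001) and in 11 gap bins, and 8.94% of all bins showed this order. Of those 6 libraries, 4 are of the Suv39h lines. Over untreated Setdb1 WT, the margin in the 4 histone bins was 0.000218 to 0.00731 for Setdb1 KO and 0.00273 to 0.0123 for Setdb1 KO + UNC. With Setdb1 WT + UNC left out, the counts of bins with this order could only stay or rise, so they do not test the part of that library. They were again 4 histone and 11 gap bins, against 10.5% of all bins. The Setdb1 line was entirely above the Suv39h lines in 0 histone bins and 1 gap bin, against 6.5% of all bins. The 3 Setdb1 libraries other than Setdb1 WT + UNC were above all 4 Suv39h libraries in 5 histone bins (all but those from 23600001 and 23900001) and in 11 gap bins, against 13.4% of all bins. These counts, too, could only stay or rise when a library was left out.

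Inhibition of G9a and GLP was compared within each background. In Setdb1 WT, UNC0642 went with lower scores in 6 of the 7 histone bins by at least 0.01, against 4.62% of all bins, and in 0 by at least 0.02, against 0.446%, with a mean of -0.0116 over the 7. In the flanks the means were -0.00481 on the left, with 3 of 10 bins lower by at least 0.01, and 0.00116 on the right, with 2 of 10. The exception was the last bin of block 2, from 23900001, with a difference of 0.00877. The gap differed there by a mean of -0.0152, and 10 of its 14 bins were lower by at least 0.01. In the other backgrounds the mean of the histone bins went the other way. It was 0.00341 in Setdb1 KO, with 2 bins higher by at least 0.01 (0.755% of all bins), 0.00230 in Suv39h WT, with 2 bins (2.26%), and 0.00691 in Suv39h DKO, with 2 bins (3.04%). In these backgrounds 0 histone bins were lower by at least 0.01, against 0.934%, 2.53% and 3.69% of all bins. The mean of the gap differed by -0.000263, -0.000357 and -0.00406 in the same order.

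Over the 4 treated and 4 untreated libraries, with background as a block, UNC0642 gave 0 called bins of 23972 (limma), and 1187 had an unadjusted p under 0.05. Of the histone bins, 0 reached an unadjusted p under 0.05 in either direction, against 2.3% of all bins with a higher and 2.65% with a lower score, and the lowest adjusted p was 0.957 (limma). The median estimate was 0.000720 over the histone bins and -0.00448 over the gap bins, of which 3 were lower at an unadjusted p under 0.05 (from 22100001, 22900001 and 23200001). The first of these, next to block 1, had an estimate of -0.0102 ± 0.00192 (standard error) and an adjusted p of 0.859 (limma). Without Setdb1 WT + UNC the medians were 0.00401 and -0.00177. In that fit 2 histone bins were higher at an unadjusted p under 0.05, against 2.61% of all bins. They were those from 21700001, with an estimate of 0.00649 ± 0.00278 (standard error), and from 23500001, with 0.0113 ± 0.00210, both with an adjusted p of 0.879 (limma). The gap bin from 22100001 was lower in that fit too, as the only gap bin at that threshold (2.97% of all bins), with an adjusted p of 0.879 (limma). Again 0 histone bins were called. A term for the difference of the UNC0642 change between the Setdb1 line and the Suv39h lines called 0 bins (limma, lowest adjusted p 0.9997 in the histone bins). At an unadjusted p under 0.05 this term was positive in 2 histone bins (from 22000001 and 23700001), against 1.86% of all bins. Without Setdb1 WT + UNC it was positive in 0, against 1.45%, and negative in 1 (from 21800001), against 1.6%.

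SUV39H1 and SUV39H2 place H3K9 trimethylation at pericentromeric repeats. The mean of the histone bins was higher in Suv39h DKO than in Suv39h WT by 0.00146, with 2 bins higher by at least 0.01 (from 21800001 and 22000001, 3.64% of all bins) and 2 lower (from 23600001 and 23900001, 3.73%). The mean difference was 0.00780 over block 1 and -0.00330 over block 2. These opposite signs did not recur with UNC0642 in both libraries (0.00938 and 0.00357) or in Suv39h DKO + UNC against untreated Suv39h WT (0.0121 and 0.00557). Under UNC0642, the DKO was higher by a mean of 0.00606, with 1 bin past 0.01 (2.98%), again that from 21800001. Suv39h DKO + UNC exceeded untreated Suv39h WT by 0.00836 over the histone bins, with 4 bins past 0.01 (4.53%). The mean differences of the gap were 0.00129, -0.00241 and -0.00277 in the same order.

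The fit of 2 Suv39h DKO against 2 Suv39h WT libraries called 0 bins (limma), and 2302 had an unadjusted p under 0.05. The estimate in the bin from 21800001 was 0.0144 ± 0.00537 (standard error), with an adjusted p of 0.446 (limma). In the bin of the testis variants it was -0.00962 ± 0.00379, with an adjusted p of 0.463 (limma). Those were the 2 histone bins with an unadjusted p under 0.05, against 4.76% of all bins for the higher and 4.85% for the lower direction. Without Setdb1 WT + UNC, which leaves these estimates as they are but changes the estimate of the spread, 3 histone bins were higher at an unadjusted p under 0.05 (from 21800001, 22000001 and 23500001, against 5.57% of all bins) and 1 was lower (from 23900001, against 5.65%). The lowest adjusted p over the histone bins was then 0.292 (limma).

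The untreated cells of the Setdb1 and Suv39h WT lines were compared to show how far lines differ without any loss or inhibition. In untreated cells, 5 of 7 histone bins were lower in Suv39h WT than in Setdb1 WT by at least 0.01, against 6.27% of all bins, with a mean of -0.0126, and 1 of 7 by at least 0.02, against 0.713%. The bins that did not were those from 23600001 (0.0000609) and 23900001 (0.00838). The gap differed by a mean of -0.0130, with 9 of 14 bins lower by at least 0.01. The difference was not limited to the cluster, since the left flank differed by a mean of -0.0104, with 5 of 10 bins lower by at least 0.01, and the right flank by -0.00337, with 4 of 10. Over 2 libraries of each background, the fit called 87 bins (limma, 31 higher and 56 lower, 0.363% of all bins), of which 0 were histone bins and 0 were gap bins. The lowest adjusted p of a histone bin was 0.343 (limma), in the bin from 23700001. That bin and the one from 22000001 were lower at an unadjusted p under 0.05, against 6.75% of all bins. So were 4 gap bins, 5 bins of the left flank and 3 of the right. Without Setdb1 WT + UNC, this fit sets 1 Setdb1 WT library against 2 of Suv39h WT and has no spread of its own for Setdb1 WT. It gave 5 histone bins as lower at an unadjusted p under 0.05, all but those from 23600001 and 23900001, against 7.85% of all bins. It called 168 bins (0.701%), among them 1 histone bin, that from 23500001, with an estimate of -0.0196 ± 0.00332 and an adjusted p of 0.0425 (limma). It also called the gap bins from 22700001 and 23300001, with adjusted p of 0.0462 and 0.0460 (limma).

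Other genes of the same system gave a point of comparison. The 13 replication-dependent histone genes outside the cluster lie in 3 bins, on chromosomes 3, 6 and 11, and all 3 were positive in all 8 libraries with means from 0.0320 to 0.0462. The 9 genes of replacement histones, which are made throughout the cell cycle, lie in 9 bins, all positive in all 8 libraries, with a median of the bin means of 0.0512, against 0.0283 over the Hist1h bins. Of 10 bins with genes for factors of histone transcription and transcript processing, 9 were positive in all 8 libraries, among them those of Npat (0.0239 to 0.0406) and Slbp (0.0331 to 0.0365). The exception was the bin of Lsm11, a part of the U7 particle that cuts histone transcripts, at -0.00117 in Suv39h WT + UNC. The 3 comparisons with a mean histone difference beyond 0.01 gave smaller medians in these distant bins. They were picked by the Hist1h bins themselves, so this contrast follows in part from the choice. From Setdb1 WT to Setdb1 WT + UNC the median difference was -0.0148 in the Hist1h bins, 0.00190 in the histone bins elsewhere, -0.00284 in the replacement histone bins and -0.00164 in the bins of the factors. From Setdb1 WT to Suv39h WT the medians were -0.0169, -0.00406, -0.00177 and -0.000655 in the same order, and from Setdb1 WT + UNC to Setdb1 KO + UNC they were 0.0207, -0.000902, 0.00206 and 0.000722. The first and last of these comparisons rest on Setdb1 WT + UNC. From Setdb1 WT to Setdb1 KO, which was not picked in this way and does not use that library, the medians were 0.00178, 0.000912, -0.00161 and -0.000224. No test was run between these lists.

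The bins elsewhere whose 8 scores were most like the mean of the histone bins were found by root mean square distance over the libraries, outside chr13:20-25 Mb. The nearest was the bin of Rab1a and Cep68 on chromosome 11, at a distance of 0.00271. It was followed by a bin of chromosome 13 without a gene start (0.00274), the bin of Cd209f, Cd209g and Evi5l on chromosome 8 (0.00313), the bin of Zfp982 on chromosome 4 (0.00313) and the bin of Fez1 on chromosome 9 (0.00314).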

How the data were processed

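The authors cut fixed chromatin of mESCs with DpnII, aligned Hi-C reads to mm10 with the 4DN Hi-C pipeline v43, kept alignments with a mapping quality above 10 and built contact maps with Juicer. The deposited values are compartment scores, which are the first eigenvector of the KR-normalised map of each autosome in 100-kb bins. Each chromosome averages 0 in each library, so a general shift cannot appear. The score files carry no counts. The study gives read numbers for each Hi-C repeat, but they cannot be matched to these files, since no source says whether a file is 1 repeat or several merged. They were not used, and no interval or floor is given.

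The 23972 bins scored in all libraries were used. Tests used limma 3.58.1 (R 4.3.3) over all bins with background and UNC0642 as terms, checked on simulated data, with 3 residual degrees of freedom in the full fits, 2 with the line by UNC0642 term, and 1 fewer in each without Setdb1 WT + UNC. With 1 set of scores per group here, p-values measure the spread around an additive fit. A difference between 2 single libraries was counted from 0.01 and has no test. Blocks are member bins under 300 kb apart, and flanks are 10 bins on each side. Every member bin was described, and gap bins were named as the first, last, lowest and highest. Members and lists were chosen with earlier results of these data known. Alternatives were other scalings, GC removal, other bin sets, a change of 0.02 and subsets of libraries.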

Additional observations from a re-analysis of the deposited data

Results flagged for a closer look

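The mean change of the histone bins with UNC0642 had opposite signs in Setdb1 WT (-0.0116) and Setdb1 KO (0.00341), a difference of 0.0150 that was not tested, with 5 of 7 bins going opposite ways. It also had opposite signs in Setdb1 WT and Suv39h WT (0.00230), a difference of 0.0139, again in 5 of 7 bins. The residual SD of such a difference was 0.0115. It comes from an additive fit to the same libraries and contains these differences, so it cannot gauge them. Both rest on Setdb1 WT + UNC, whose part in them was not tested. The corresponding term for the Setdb1 line against the Suv39h lines called 0 bins (limma). In the gap, the change with loss of SUV39H1 and SUV39H2 was 0.00129 without UNC0642 and -0.00241 with it, a difference of -0.00371 that was not tested. The residual SD of such a difference in the gap, again from a fit to the same libraries, was 0.00997.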

How the results depend on the processing

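The histone minus gap difference kept its sign in all 8 libraries under all scalings and bin sets run. So did every mean change of at least 0.01. The 7 histone bins did so except under GC removal (6 positive in all libraries). Of 296 values that answer a comparison, 278 stayed within the spread between libraries or within 1.5 times the count. Among them are counts of 0 at a change of 0.01, which had to be 0 at 0.02. Of the histone counts above 0 at 0.01, only that of Setdb1 KO + UNC against Setdb1 WT + UNC stayed within 1.5 times at 0.02. The mean histone minus gap difference was 0.0186 (lowest library 0.0110) with GC content removed and 0.0317 (lowest library 0.0242) without the outermost gap bins. With a change of 0.02 in place of 0.01, 4 histone bins passed in Setdb1 KO + UNC against Setdb1 WT + UNC (1.34% of all bins) and 1 in Suv39h WT against Setdb1 WT (0.713%). At that threshold 0 passed, against 0 to 0.446% of all bins, in Setdb1 WT + UNC against Setdb1 WT, Setdb1 KO + UNC against Setdb1 WT or Setdb1 KO, Suv39h WT + UNC against Suv39h WT, Suv39h DKO against Suv39h WT in either direction, and Suv39h DKO + UNC against each of the other 3 Suv39h libraries. Without Setdb1 WT + UNC, the limma fit of the lines, in which Setdb1 WT is then 1 library, called 1 histone bin and 2 gap bins in place of 0 and 0. The order of the lines without that library, chosen after seeing the data, held in 5 histone and 11 gap bins in place of 0 and 1, counts that could only stay or rise. The lowest adjusted p of a histone bin under the alternatives ran from 0.717 to 0.9999 for UNC0642, 0.392 to 0.9996 for SETDB1 loss and 0.292 to 0.490 for SUV39H1 and SUV39H2 loss (limma). The causes were not tested. No paired analysis by replicate number was possible because each group has 1 set of scores here. Read numbers and agreement between repeats were not used here, neighbouring bins are not independent, and a score of 100 kb cannot place a change at 1 gene.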
